A study of Homo sapiens with 6 samples.

Results

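The genes described here encode the MHC class I molecule and the machinery that cuts and delivers its peptides. They are the heavy chains HLA-B, HLA-C, HLA-E and HLA-F, the light chain B2M, the peptide transporter subunits TAP1 and TAP2, and the immunoproteasome subunits PSMB8 and PSMB9. The 9 genes were taken by symbol from a table of 30017 symbols, in a choice made with earlier results of these data known. Of them, 8 were among the 14758 genes with enough counts to be tested.

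The libraries are from BLaER1-CTCF-mAID cells, 1 subclone of the B cell leukaemia line BLaER whose CTCF is fused to a degron that auxin (IAA) activates. All cells therefore carried the tagged CTCF and an exogenous C/EBPα that drives conversion into macrophages when estradiol, interleukin-3 and colony-stimulating factor 1 are added. The groups, with 2 libraries each, were untreated cells at 0 h, cells after 96 h of conversion without auxin (control), and cells after 96 h that received auxin along with the conversion factors (CTCF-depleted). A line without the degron is not among these libraries, so effects of auxin itself and of CTCF depletion cannot be told apart. The degron acts on the protein, so the CTCF transcript does not check the depletion. Total counts ranged from 9273470 to 12718780 per library. All 13 precursor B cell markers fell and all 12 macrophage markers rose in both 96 h groups against 0 h, and of the markers of other cell types CD3D, CD3G, HBB and HBA1 had no count in any of the 6 libraries. NCAM1, a natural killer cell marker, rose in conversion (log2 fold change 1.37), while COL1A1 and PDGFRB, markers of fibroblasts, fell (log2 fold changes -1.70 and -3.16). Their part in the results was not tested. These are bulk libraries, in which fewer cells of a kind and less RNA per cell cannot be told apart. The p-values of fold changes set a difference between groups against the spread between libraries, estimated from all 6 libraries with information shared over genes.

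MHC class I displays peptides from the cell's own proteins to cytotoxic T cells. The proteasome cuts proteins into peptides, and in immune cells PSMB8, PSMB9 and PSMB10 can take the place of the standard catalytic subunits PSMB5, PSMB6 and PSMB7. TAP1 and TAP2 carry the peptides into the endoplasmic reticulum, where they are loaded onto a heavy chain paired with B2M, and NLRC5, interferon regulatory factors and NF-κB are known activators of these genes.

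Promoter stretches of some of the genes are shown here with the matches to a few fixed runs of letters. The stretches below cover 140 bases, from 180 to 41 bases before the start of the MANE transcript (the representative transcript chosen by RefSeq and Ensembl), in the direction of transcription, from RefSeq's windows on GRCh38.p14. Capitals mark matches, on either strand, to GAAA repeated after 2 bases of any kind (an interferon response element), GGG followed after 4 bases by CCC (the outer letters of an NF-κB site), TGACG (the core of an X2 box or cAMP response element) and CCAAT (the Y box); matches may overlap. The heavy chains with a window and B2M are shown first, since HLA-B, HLA-C and B2M are among the genes that rose; HLA-F, too low to be tested, is shown as a heavy chain for comparison.
HLA-B (chr6:31357220-31357359, - strand): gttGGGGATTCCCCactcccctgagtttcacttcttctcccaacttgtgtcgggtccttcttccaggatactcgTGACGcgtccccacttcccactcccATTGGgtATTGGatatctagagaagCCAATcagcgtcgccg
HLA-C (chr6:31272133-31272272, - strand): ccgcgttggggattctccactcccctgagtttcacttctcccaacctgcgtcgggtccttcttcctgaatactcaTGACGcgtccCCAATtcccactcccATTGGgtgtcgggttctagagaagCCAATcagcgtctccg
HLA-F (chr6:29723254-29723393, + strand): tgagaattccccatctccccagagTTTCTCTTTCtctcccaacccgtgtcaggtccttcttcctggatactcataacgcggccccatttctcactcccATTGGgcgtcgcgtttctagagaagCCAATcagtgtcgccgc
B2M (chr15:44711337-44711476, + strand): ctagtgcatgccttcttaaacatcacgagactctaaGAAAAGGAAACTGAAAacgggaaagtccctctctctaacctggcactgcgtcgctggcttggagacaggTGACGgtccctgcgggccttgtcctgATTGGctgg

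The HLA-B and HLA-C stretches share a TGACG followed by CCAAT boxes on both strands, both known elements of the class I enhanceosome, and the NF-κB letters were matched in HLA-B alone of the 8 genes with a window. HLA-F lacks the TGACG match in the same position. The other shown pair, TAP1 and PSMB9, is transcribed in opposite directions from starts 487 bases apart.
TAP1 (chr6:32853745-32853884, - strand): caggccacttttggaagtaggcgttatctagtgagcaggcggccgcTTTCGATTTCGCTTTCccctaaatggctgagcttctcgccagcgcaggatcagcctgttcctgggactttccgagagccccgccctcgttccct
PSMB9 (chr6:32854012-32854151, + strand): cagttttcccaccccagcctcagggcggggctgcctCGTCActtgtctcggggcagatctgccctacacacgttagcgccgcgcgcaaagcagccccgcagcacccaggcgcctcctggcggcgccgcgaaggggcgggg

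Over the full windows of 250 bases before to 50 bases after the start, the interferon response element was found in 5 of the 8 genes (HLA-F, B2M, TAP1, TAP2 and PSMB8) and in 3.57% of all 35116 windows. TGACG was found in 5 of the 8 and in 24.6% of all windows, and CCAAT in 6 of the 8 and in 34.6%. The NF-κB letters were present in 17.8% of all windows. A core of the CTCF motif, CC followed after 3 bases by AGG and after 1 more base by GGC, was found in TAP2 and PSMB9 and in 4.64% of all windows. A match describes these letters only and is not a measured binding site. An element that departs from these letters is not matched, so a missing match does not mean that the element is absent. HLA-E had no entry among the windows.

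During conversion with CTCF, the 3 heavy chains that could be tested and the light chain rose, and no other tested gene of the group was called higher. Of the 8 tested genes, 4 were called higher (HLA-B, HLA-C, HLA-E and B2M) where 25.4% of all 14758 genes were, and 1 was called lower (PSMB9) where 22.9% were. By adjusted p alone, 4 were higher and 3 lower (TAP1, TAP2 and PSMB9), where 34.5% and 33.7% of all genes were. A call required an adjusted p below 0.01 and a log2 fold change beyond 0.6 in edgeR's quasi-likelihood test over all genes with Benjamini-Hochberg adjustment, which is the test behind each adjusted p in the text. After CTCF depletion, no gene of the group passed both thresholds, where 5.41% of all genes were called higher and 7.03% lower. By adjusted p alone, 3 were lower (HLA-B, HLA-C and HLA-E), where 17.4% of all genes were, and 0 higher, where 12.0% were. At an unadjusted p below 0.05, 4 genes were lower and 0 higher in that comparison, with no share of all genes given at that threshold. The counts were the same at an adjusted p below 0.05 alone, where 3330 of all 14758 genes were lower and 2375 higher. They are not read as a result about the group. DESeq2 also called 0 of the group there, where it called 559 of 14605 genes higher and 721 lower. Among markers in the same comparison, 1 of the 12 macrophage markers was called higher (ITGAM) and 1 lower (MRC1), and of the 13 precursor B cell markers 2 were higher and 2 lower. Their part in the values of the class I genes was not tested.

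**Figure D1:**
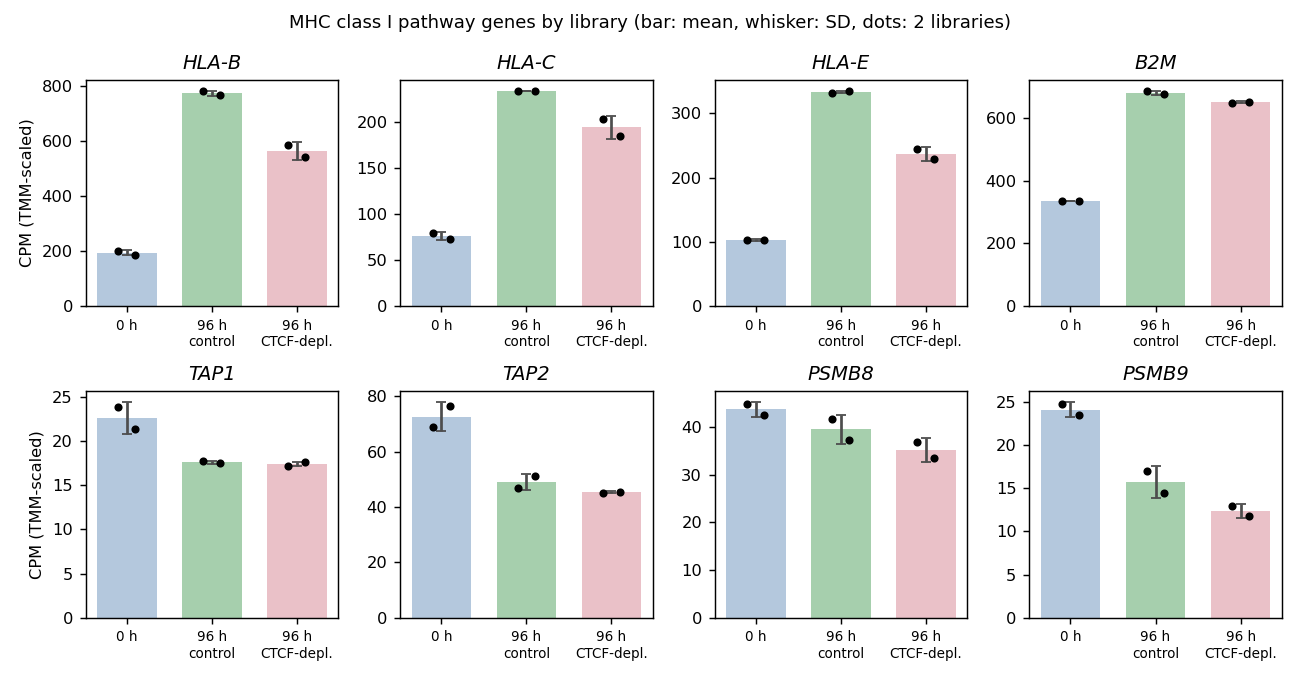
CPM, read counts scaled to library size with the TMM method, of the 8 tested genes by group, with 1 dot for each of the 2 libraries, bars for the mean and whiskers for the SD. HLA-B, HLA-C, HLA-E and B2M stand higher in both 96 h groups than at 0 h, while TAP1, TAP2 and PSMB9 stand lower.

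HLA-B, a classical heavy chain (chr6:31353872-31367067, minus strand, GENCODE 44), was measured at 201 and 188 CPM at 0 h, at 779 and 765 CPM in control and at 586 and 541 CPM in CTCF-depleted libraries. The 3 groups did not overlap, with control highest and 0 h lowest. The rise with CTCF was 3.98-fold (log2 fold change 1.99, SE 0.05, adjusted p = 1.34e-40, edgeR). CTCF-depleted cells stood 0.46 below control on the log2 scale (log2 fold change -0.46, SE 0.05, adjusted p = 2.64e-12, edgeR), short of the fold threshold.

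HLA-C, the classical heavy chain next to HLA-B (chr6:31268749-31272130, minus strand), was at 79.5 and 73.1 CPM at 0 h, 234 and 234 CPM in control and 204 and 186 CPM after depletion. Again the 3 groups were separate, and control was highest. The log2 fold change was 1.62 with CTCF (SE 0.06, adjusted p = 6.2e-33, edgeR) and -0.27 for depletion against control (SE 0.05, adjusted p = 3.21e-05, edgeR). Without control replicate 1, control replicate 2 or CTCF-depleted replicate 2, the latter did not pass the adjusted p threshold in edgeR (-0.24, -0.24 and -0.17, with adjusted p = 0.0131, 0.0143 and 0.0445).

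HLA-E (chr6:30489509-30494194, plus strand), a non-classical heavy chain that shows leader peptides of other class I chains to natural killer cells, was at 104 and 102 CPM at 0 h. It was at 332 and 335 CPM in control and at 244 and 229 CPM after depletion, so that the 3 groups were separate and control was highest. The log2 fold change was 1.69 with CTCF (SE 0.05, adjusted p = 2.13e-36, edgeR). For depletion against control it was -0.49 (SE 0.05, 95% interval -0.59 to -0.40, adjusted p = 4.33e-13, edgeR). This was the lowest value of the 8 tested genes, although that of HLA-B (-0.46) lay inside the interval.

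HLA-F (chr6:29722775-29738528, plus strand), a non-classical heavy chain, had 2 and 1 counts at 0 h, 6 and 2 in control and 2 and 6 after depletion. With these counts its level could not be compared between the groups, and it was not tested. It shares 257 bases of its MANE exons with HLA-F-AS1 on the opposite strand, which had 17 to 46 counts per library. The strand setting of the counting is not given in the sources used here, so reads of such antisense partners cannot be told apart.

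The balance between HLA-B and HLA-C differed between the groups, a comparison chosen after values were seen. HLA-B took 71.7% of the summed counts of both genes in 0 h replicate 1 (95% exact binomial interval 69.9 to 73.4%) and 72.0% in replicate 2 (70.4 to 73.4%). In control libraries it took 76.9% (76.1 to 77.7%) and 76.5% (75.7 to 77.3%), and in CTCF-depleted libraries 74.2% (73.3 to 75.1%) and 74.4% (73.5 to 75.4%). The intervals cover counting error only. The HLA-B share was highest in control and intermediate after depletion, with no overlap between groups. The classical heavy chains are close paralogs with many alleles, so how reads were split between them by the counting is uncertain. The pseudogene HLA-H, which can share their reads, also rose (log2 fold change 1.89, SE 0.14, adjusted p = 2.03e-18, edgeR). HLA-L, another such pseudogene, had a value of -0.15 with CTCF (adjusted p = 0.462, edgeR) and fell after depletion by 0.86 on the log2 scale (SE 0.21, adjusted p = 8.27e-04, edgeR).

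B2M, the light chain common to all class I molecules (chr15:44711358-44718851, plus strand), lies outside the MHC. It was at 335 and 336 CPM at 0 h, 684 and 675 CPM in control and 647 and 651 CPM after depletion. All libraries at 96 h were above both at 0 h, and the depleted libraries were below the control libraries by less than their distance to 0 h. The rise with CTCF was 2.03-fold (log2 fold change 1.02, SE 0.05, adjusted p = 3.67e-28, edgeR), the lowest of the 4 genes that rose. Depletion gave -0.07 (SE 0.04, 95% interval -0.16 to 0.02, adjusted p = 0.232, edgeR).

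The balance of B2M to the heavy chains differed between the groups. Counts per kb of MANE transcript were formed within each library, so that no scaling enters. B2M stood at 1.59 and 1.70 times the summed HLA-B, HLA-C, HLA-E and HLA-F at 0 h, at 0.919 and 0.916 times in control and at 1.13 and 1.23 times after depletion. The groups did not overlap, with 0 h highest and control lowest. The log2 difference was -0.84 between control and 0 h and 0.36 between depleted and control libraries. With 2 libraries against 2, an exact two-sided permutation test cannot go below p = 0.333, which is the value of both.

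TAP1 (chr6:32845209-32853816, minus strand) was at 23.9 and 21.4 CPM at 0 h, 17.7 and 17.5 CPM in control and 17.2 and 17.6 CPM after depletion. The 0 h libraries were highest, and the 96 h groups overlapped. The log2 fold change with CTCF was -0.35 (SE 0.12, adjusted p = 0.00573, edgeR), short of the fold threshold, and adjusted p = 0.0659 in DESeq2. In edgeR it no longer passed the p threshold without 0 h replicate 1 (adjusted p = 0.0657), control replicate 1 (adjusted p = 0.0128) or control replicate 2 (adjusted p = 0.0307). Depletion gave -0.02 (SE 0.12, 95% interval -0.26 to 0.23, adjusted p = 0.932, edgeR), and its sign changed under other settings. TAP1 shares 577 bases of its MANE exons with PSMB8-AS1 on the opposite strand.

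TAP2 (chr6:32821833-32838739, minus strand) was at 68.9 and 76.4 CPM at 0 h, 46.9 and 51.0 CPM in control and 45.0 and 45.5 CPM after depletion. The 3 groups did not overlap, although the distance between the 96 h groups was smaller than that between the 2 control libraries. The log2 fold change with CTCF was -0.58 (SE 0.08, adjusted p = 2.74e-09, edgeR), just short of the fold threshold. Without 0 h replicate 1, control replicate 2 or CTCF-depleted replicate 1 it was -0.65, -0.63 and -0.61, past that threshold. Depletion gave -0.11 (SE 0.08, 95% interval -0.28 to 0.05, adjusted p = 0.301, edgeR), and -0.02 without control replicate 2 and -0.07 without CTCF-depleted replicate 1. The TAP1 to TAP2 ratio per kb was 0.730 and 0.588 at 0 h, 0.796 and 0.721 in control and 0.804 and 0.813 after depletion, and the 0 h and control ranges overlapped.

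PSMB8 (chr6:32840717-32844679, minus strand), which replaces PSMB5, was at 44.8 and 42.5 CPM at 0 h, 41.7 and 37.3 CPM in control and 36.9 and 33.4 CPM after depletion. The groups did not overlap and the order was from 0 h down to depleted, but the steps were about as large as the spread within a group. The log2 fold change was -0.14 with CTCF (SE 0.08, 95% interval -0.31 to 0.03, adjusted p = 0.119, edgeR). Depletion gave -0.17 (SE 0.09, 95% interval -0.34 to 0.00, adjusted p = 0.115, edgeR). Both values rest on single libraries: the first was -0.26 without control replicate 1, -0.22 without 0 h replicate 2 and -0.06 without control replicate 2, and the second was -0.05 without control replicate 1 and -0.07 without CTCF-depleted replicate 2.

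PSMB9 (chr6:32844136-32859851, plus strand), which replaces PSMB6, was at 24.8 and 23.5 CPM at 0 h, 17.0 and 14.4 CPM in control and 13.0 and 11.8 CPM after depletion. The 3 groups were separate, with 0 h highest and depleted lowest. PSMB9 fell with CTCF (log2 fold change -0.61, SE 0.12, adjusted p = 1.24e-05, edgeR). The call stood at the edge of the fold threshold, and without 0 h replicate 1 or control replicate 2 the value was -0.58 and -0.49, no longer past it. Depletion gave -0.35 (SE 0.14, 95% interval -0.62 to -0.08, adjusted p = 0.0369, edgeR), which misses the adjusted p threshold, and -0.19 without control replicate 1 (adjusted p = 0.407, edgeR). PSMB8 and PSMB9 share 139 exon bases on opposite strands, none of them in the MANE transcripts.

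**Figure D2:**
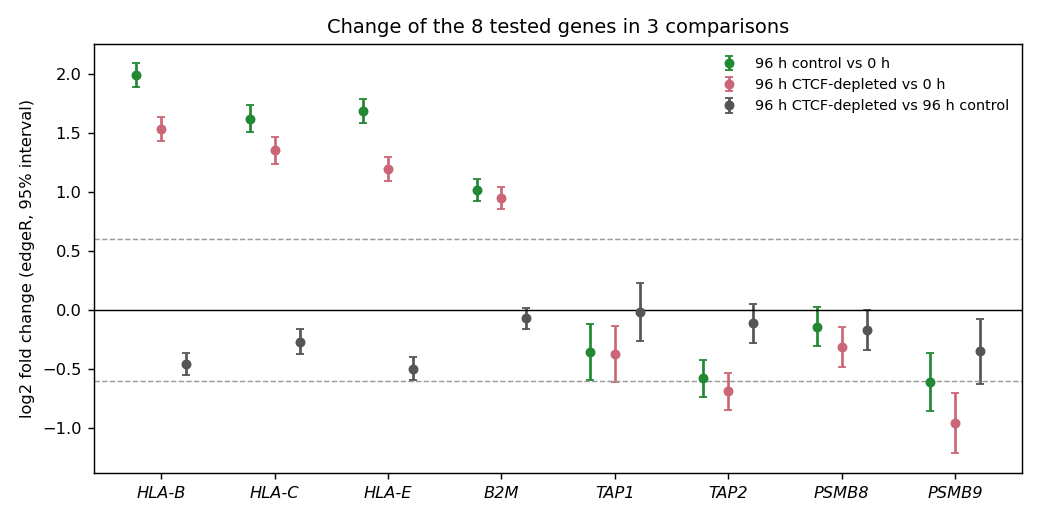
Log2 fold changes of the 8 tested genes from edgeR with 95% intervals, in 3 comparisons that share libraries; dashed lines mark the fold threshold of 0.6. The heavy chains and B2M lie above 0.6 in both comparisons with 0 h, and all 8 depletion values lie between -0.49 and -0.02.

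Conversion in CTCF-depleted cells was compared with the same 0 h libraries, so that it is not independent of the other comparisons. Here 4 genes were called higher, where 27.2% of all genes were, and 2 lower (TAP2 and PSMB9), where 25.2% were. By adjusted p alone, 4 were higher and 4 lower, where 35.9% and 35.0% of all genes were. HLA-B rose by a log2 fold change of 1.54 (SE 0.05, adjusted p = 5.7e-35, edgeR), HLA-C by 1.35, HLA-E by 1.20 and B2M by 0.95. PSMB9 fell by 0.96 on the log2 scale (SE 0.13, adjusted p = 1.43e-09, edgeR) and TAP2 fell by 0.69 (SE 0.08, adjusted p = 2.02e-11, edgeR). TAP1 and PSMB8 had values of -0.37 (adjusted p = 0.00382, edgeR) and -0.31 (adjusted p = 8.59e-04, edgeR) and missed the fold threshold. For HLA-E, the value with CTCF was 1.69 and without it 1.20, which was the widest gap among the heavy chains. The test of that gap is the comparison of depleted with control libraries above.

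Levels were compared between genes as CPM per kb of MANE transcript. At 0 h the order was B2M (356 ± 1.13, SD, n = 2), HLA-B (127 ± 6.29), HLA-C (49.5 ± 2.94), HLA-E (40.5 ± 0.422), PSMB8 (38.8 ± 1.41), PSMB9 (23.7 ± 0.890), TAP2 (12.9 ± 0.943), TAP1 (8.44 ± 0.673) and HLA-F (0.095 ± 0.063). The order was the same in all 3 groups, and in none did the ranges of neighbours in it overlap. The place of HLA-F rests on at most 6 counts per library. The spread of the levels widened at 96 h. In control, HLA-B reached 503 ± 6.49 and B2M 721 ± 6.86, while TAP1 stood at 6.56 ± 0.062. With the union of all annotated exons as length, 10 of the 27 positions changed, so the order of HLA-C and HLA-E and that of PSMB9 and TAP2 depend on the length used.

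The standard proteasome core was lower in converted cells. Of the 14 standard core subunits tested, 10 fell with CTCF and 0 rose, beside 22.9% and 25.4% of all genes, with a median log2 fold change of -0.77 beside 0.02 over all genes. PSMA6, a subunit of the outer ring, was at 275 and 268 CPM at 0 h and 84.8 and 91.7 CPM in control (log2 fold change -1.62, SE 0.06, adjusted p = 2.14e-33, edgeR). PSMB5, which carries the chymotrypsin-like site, was at 62.6 and 64.1 CPM at 0 h and 36.4 and 29.2 CPM in control (log2 fold change -0.95, SE 0.08, adjusted p = 2.85e-15, edgeR). In the depletion comparison 0 of the 14 were called by edgeR or DESeq2, where edgeR called 5.41% of all genes higher and 7.03% lower. Their median was -0.11 beside -0.03 over all genes. At an unadjusted p below 0.05, 5 were lower and 1 higher. No share of all genes is given at that threshold, so these counts are not read as a result about the core.

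Each immune subunit was then set against the standard subunit that it replaces, in counts per kb within each library. PSMB8 stood at 0.664 and 0.617 times PSMB5 at 0 h, at 1.06 and 1.19 times in control and at 1.13 and 1.01 times after depletion. All 4 libraries at 96 h were above both at 0 h, and the 96 h groups overlapped. PSMB10 stood at 0.369 and 0.329 times PSMB7 at 0 h, at 0.514 and 0.634 times in control and at 0.615 and 0.555 times after depletion, with the same arrangement. PSMB9 stood at 0.280 and 0.297 times PSMB6 at 0 h, 0.360 and 0.309 times in control and 0.319 and 0.338 times after depletion. The log2 differences between control and 0 h were 0.81 for PSMB8 to PSMB5, 0.71 for PSMB10 to PSMB7 and 0.21 for PSMB9 to PSMB6. The last was 0.10 without control replicate 1 and 0.32 without control replicate 2. Each had an exact two-sided permutation p = 0.333, the smallest that 2 libraries against 2 allow. PSMB5 and PSMB7 fell (log2 fold changes -0.95 and -0.62), while PSMB8 and PSMB10 had values of -0.14 and 0.09 that did not pass the test. PSMB9 to TAP1, the pair with neighbouring starts, was 2.73 and 2.90 at 0 h, 2.54 and 2.18 in control and 1.99 and 1.77 after depletion. The groups did not overlap, and the log2 difference between depleted and control libraries was -0.33, or -0.22 without control replicate 1.

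**Figure D3:**
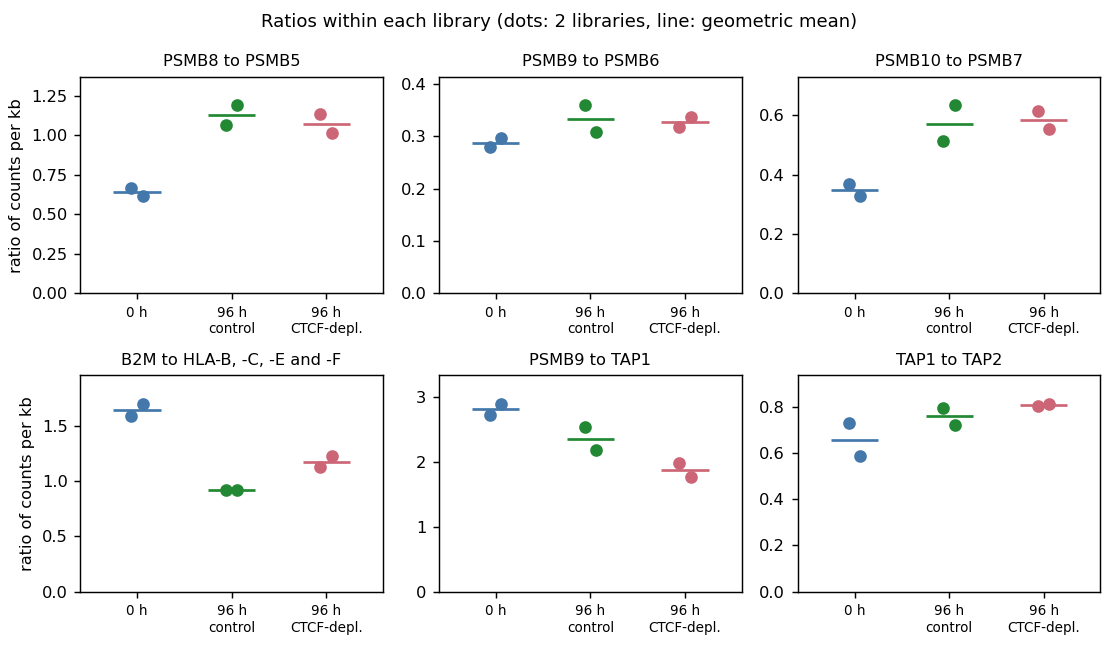
Ratios of counts per kb of MANE transcript within each library, with 1 dot for each library and a line at the geometric mean of a group. The mean of PSMB8 to PSMB5 is 0.64 at 0 h and 1.12 in control, and B2M to the summed HLA-B, HLA-C, HLA-E and HLA-F is lowest in control at 0.917.

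Other genes of the pathway were taken from lists by role. Among 6 partners and activators of the immunoproteasome, 2 fell with CTCF and 0 rose, where 22.9% and 25.4% of all genes did, so that neither share is a result about this list. POMP, the proteasome maturation factor, had a log2 fold change of -1.16 (SE 0.08, adjusted p = 1.23e-19, edgeR) and PSME3, a nuclear activator, -0.87 (SE 0.06, adjusted p = 2.06e-20, edgeR). PSME1 and PSME2, the interferon-inducible activator subunits, had values of -0.58 and -0.53, short of the fold threshold. For depletion they stood at -0.24 and -0.34, also short of it.

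Of 8 genes of the peptide loading complex and the endoplasmic reticulum chaperones, 0 were called in any of the 3 comparisons with edgeR. DESeq2 also called 0. Of all genes, edgeR called 25.4% higher and 22.9% lower with CTCF, and 27.2% and 25.2% in depleted cells against 0 h. After depletion it called 5.41% and 7.03%, so that 0 of 8 there is not a result about this list. With CTCF, 5 of the 8 were higher by adjusted p alone, where 34.5% of all genes were, and 6 at an unadjusted p below 0.05. After depletion 1 of the 8 was higher at an unadjusted p below 0.05. No share of all genes is given for the unadjusted counts, so they are not read as a result about this list. TAPBP, which bridges the transporter and the heavy chain, was at 225 and 212 CPM at 0 h and 243 and 247 CPM in control (log2 fold change 0.16). CALR, the chaperone calreticulin, was at 711 and 729 CPM at 0 h and 720 and 700 CPM in control (log2 fold change -0.02). PDIA3, an oxidoreductase of the loading complex, was at 229 and 237 CPM at 0 h and 319 and 314 CPM in control (log2 fold change 0.44), and SEC61A1, a subunit of the translocation channel, had a value of 0.41, both short of the fold threshold.

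Peptide trimming enzymes were split. ERAP2, an aminopeptidase of the endoplasmic reticulum, was at 71.8 and 79.8 CPM at 0 h, 26.7 and 31.4 CPM in control and 17.5 and 21.0 CPM after depletion. It fell with CTCF (log2 fold change -1.39, SE 0.09, adjusted p = 8.95e-22, edgeR), and its depletion value of -0.59 (adjusted p = 5.16e-06, edgeR) lay at the fold threshold. LNPEP, the endosomal aminopeptidase, rose from 67.0 and 74.7 CPM to 167 and 177 CPM (log2 fold change 1.27, SE 0.06, adjusted p = 1.01e-26, edgeR). ERAP1 had a value of -0.25.

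Among 10 transactivators and enhanceosome subunits, 3 rose with CTCF and 1 fell, near or below the 25.4% and 22.9% of all genes. NLRC5, the class I transactivator, was at 44.5 and 48.0 CPM at 0 h, 344 and 341 CPM in control and 244 and 226 CPM after depletion. It rose with CTCF (log2 fold change 2.88, SE 0.06, adjusted p = 2.8e-45, edgeR). Its depletion value of -0.54 (SE 0.05, adjusted p = 3.44e-14, edgeR) was short of the fold threshold. The groups of NLRC5 lay in the order of HLA-B, HLA-C, HLA-E and B2M, although the depletion value of B2M (-0.07, adjusted p = 0.232, edgeR) did not pass the test. TAP1, TAP2, PSMB8 and PSMB9 instead stood lower in both 96 h groups than at 0 h. Of these, PSMB8 did not pass the test with CTCF (log2 fold change -0.14, adjusted p = 0.119, edgeR). A link between NLRC5 and these genes was not tested. RFXAP, a subunit of the RFX complex that binds the X box, rose with CTCF (0.75) and fell after depletion by 0.73 on the log2 scale (SE 0.09, adjusted p = 2.28e-09, edgeR), the 1 call of the list in that comparison. NFYA, which binds the CCAAT box, fell with CTCF by 0.68 on the log2 scale.

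Of 14 interferon and NF-κB inputs, 10 rose with CTCF and 0 fell, beside 25.4% and 22.9% of all genes. IRF8, a myeloid and B cell interferon regulatory factor, was at 15.2 and 10.8 CPM at 0 h, 356 and 342 CPM in control and 169 and 167 CPM after depletion. It fell after depletion (log2 fold change -1.06, SE 0.05, adjusted p = 5.13e-24, edgeR). IRF1, a direct activator of several class I pathway genes, was at 72.5 and 65.0 CPM at 0 h, 75.0 and 74.5 CPM in control and 45.4 and 44.8 CPM after depletion. It too fell after depletion (log2 fold change -0.73, SE 0.08, adjusted p = 1.5e-11, edgeR), although its change with CTCF of 0.13 did not pass the test. JAK2, the kinase of the interferon-γ receptor, moved the other way and rose after depletion from 259 and 285 CPM to 468 and 473 CPM (log2 fold change 0.79, SE 0.05, adjusted p = 4.92e-21, edgeR). The receptor chains IFNGR1, IFNGR2, IFNAR1 and IFNAR2 rose with CTCF by log2 fold changes of 1.64 to 2.91, and none was called after depletion.

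**Figure D4:**
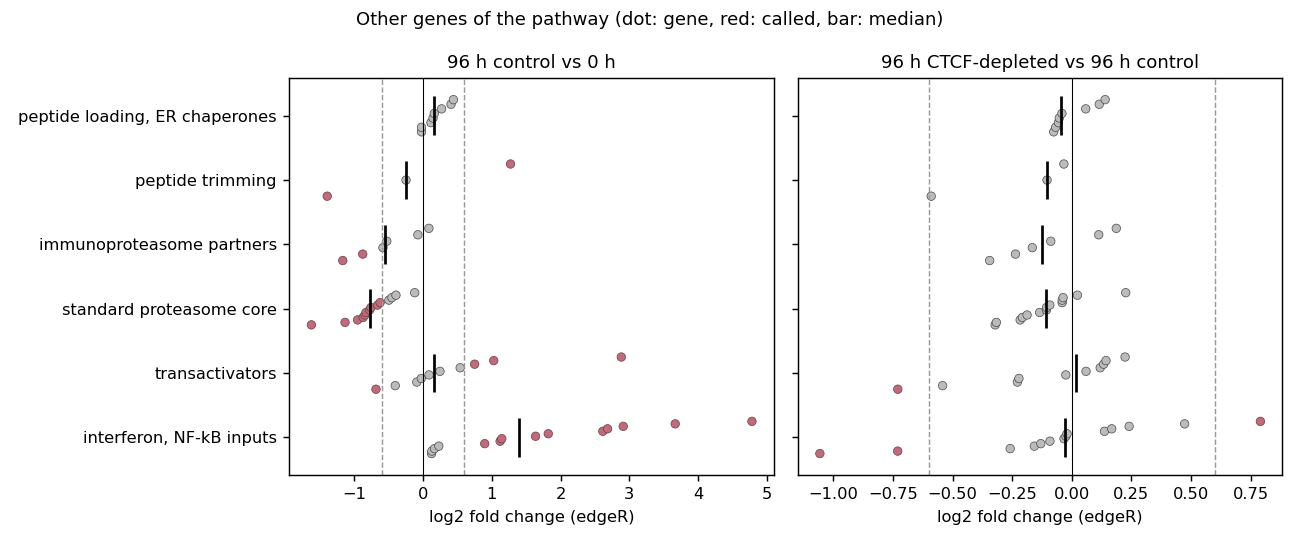
Log2 fold changes from edgeR of the other pathway genes by list, for conversion with CTCF on the left and CTCF depletion at 96 h on the right; dots are genes, red dots passed both thresholds, black bars are list medians and dashed lines mark 0.6. The standard proteasome core lies to the left with a median of -0.77 and the interferon and NF-κB inputs lie to the right with a median of 1.39 during conversion.

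Molecules that resemble class I chains, and the receptors that bind them, were examined as well. Of 8 class I-like genes tested, 4 rose with CTCF and 1 fell, beside 25.4% and 22.9% of all genes. FCGRT, the neonatal Fc receptor chain that also pairs with B2M, was at 4.44 and 5.93 CPM at 0 h, 77.0 and 78.9 CPM in control and 109 and 103 CPM after depletion. It stood above control after depletion by a log2 fold change of 0.45 (SE 0.07, adjusted p = 7.4e-07, edgeR), short of the fold threshold, where HLA-B, HLA-C and HLA-E stood below. MR1, which presents vitamin metabolites, rose from 9.08 and 11.4 CPM to 44.4 and 45.9 CPM (log2 fold change 2.12, SE 0.11, adjusted p = 9.73e-26, edgeR). All 4 myeloid class I receptors tested (LILRB1, LILRB2, LILRA1 and LILRA2) rose with CTCF. LILRB1, an inhibitory receptor for many class I molecules, rose from 2.17 and 3.08 CPM to 33.0 and 29.8 CPM (log2 fold change 3.54, SE 0.16, adjusted p = 2.16e-28, edgeR).

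TAP2, PSMB8, TAP1 and PSMB9 are neighbours in the class II region of the MHC, with TAP2 and PSMB9 at the ends of a cluster of 34.4 kb (measured over the MANE transcripts). Within 100 kb of the cluster, 4 further genes were tested, of which 3 rose with CTCF and 1 fell, beside 25.4% and 22.9% of all genes, which hold for the other neighbours too. HLA-DMA and HLA-DMB, the chains of the class II peptide exchange factor, rose by log2 fold changes of 1.60 (SE 0.12, adjusted p = 2.12e-18) and 1.31 (SE 0.24, adjusted p = 1.76e-06, edgeR). They also rose after depletion against control, by 0.61 each (adjusted p = 1.86e-07 and 0.00646, edgeR), at the edge of the fold threshold, a comparison in which none of the 4 genes of the cluster was called. HLA-DOB, whose annotated body lies 1367 bases from that of TAP2, fell with CTCF (log2 fold change -0.92, SE 0.31, adjusted p = 0.00626, edgeR). Around HLA-B, HLA-C, HLA-E and HLA-F, 8 neighbours were tested, of which 4 rose and 3 fell with CTCF. MICA and HCP5 near HLA-B rose by 0.98 and 1.49, while GNL1 and PRR3 near HLA-E fell by 0.88 and 1.05 on the log2 scale. HCG27 near HLA-C rose with CTCF (1.42) and was the 1 neighbour called lower after depletion (log2 fold change -0.87, SE 0.18, adjusted p = 5.22e-05, edgeR). Around B2M, 2 of 3 neighbours rose. PATL2, whose annotated body lies 35 bases from that of B2M, had a log2 fold change of 2.28 with CTCF (SE 0.20, adjusted p = 3.96e-15, edgeR). After depletion it was 0.62 (SE 0.14, adjusted p = 0.00032, edgeR).

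The genes of the group were compared in pairs by their pattern over the 6 libraries, measured as the root mean square difference of centred log2 CPM. The closest pair was HLA-C and HLA-E (0.099), followed by TAP1 and PSMB8 (0.112), and the farthest was HLA-B and PSMB9 (1.20). Over all genes tested, the patterns most like that of HLA-B were those of PINK1 (0.049), EDA2R (0.052) and XKR8 (0.056). For HLA-E they were C1RL (0.058), LCP1 (0.077) and RNF19B (0.078), and for HLA-C CALCOCO1 (0.041), NIN (0.045) and CTDSP1 (0.051). DIP2A (0.016) was nearest to B2M, EIF3F (0.020) to TAP1, ZNF92 (0.034) to TAP2 and USP5 (0.015) to PSMB8, and CLPP (0.046) and GALK1 (0.049) were among the nearest to PSMB9. No gene of the group was among the 3 nearest of another.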

How the data were processed

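RNA-seq libraries were made from total RNA after ribosomal RNA depletion with a stranded kit. Per the submitters' processing notes, the authors aligned reads to hg38 with STAR 2.6.1d, counted them with featureCounts 2.0.6 and deposited raw counts per gene symbol, without normalization, in 6 libraries. The annotation release and the strand setting are not given in the sources used here. The study's methods speak of protein-coding exons, but the table also holds counts for genes that are not protein-coding, such as HLA-F-AS1.

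From these counts, genes were filtered with filterByExpr (14758 kept), libraries were scaled with TMM (factors 0.959 to 1.05), and a quasi-likelihood model with condition as its only term was fitted to all 6 libraries in edgeR 4.0.16 (R 4.3.3). Benjamini-Hochberg adjustment ran over all genes tested. The thresholds (adjusted p of 0.01, log2 fold change of 0.6) are those of the study's methods, which used DESeq2. Positions and lengths came from GENCODE 44, and windows from RefSeq. The fit was tested on simulated data. Summaries and plots were made with Python 3.11.15, pandas 2.3.3, numpy 2.4.6, scipy 1.17.1 and matplotlib 3.10.9.

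The common biological coefficient of variation was 3.96%, which sets the precision. No molecular identifiers were used, so reads are not independent molecules. Replicates differed by more than counting noise (chi-square per degree of freedom 1.72 to 2.70), so each was kept as a library of its own. The study gives no pairing, and replicate numbers showed no shared shift between groups: correlations of replicate differences were -0.0165, 0.00635 and -0.0399. Such correlations cannot tell whether replicates were prepared as pairs. Alternatives were DESeq2 1.42.0, RLE scaling, other count filters, a fit of 4 libraries, the replicate block, glmTreat, other thresholds and leaving out each library. The genes and lists were chosen with earlier results of these data known. Genes named are the 9 genes, members of the lists past the thresholds or needed for a role, tested neighbours within 100 kb, and the 3 genes nearest in pattern to each. PSMB8-AS1 was not used here. Some genes covered by these rules are not reported here, and sums over heavy chains use only those among the 9 genes.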

Additional observations from a re-analysis of the deposited data

How the results depend on the processing

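Of 288 alternative values of the 8 tested genes' log2 fold changes, 267 kept their direction and side of the adjusted p threshold. Another 14 kept direction but lost it, and 7 changed sign, all of these for TAP1 after depletion. These were 0.0143 without a filter, 0.0151 in the fit of 4 libraries and 0.0031 to 0.0369 leaving out 1 library, none past the threshold. Without CTCF-depleted replicate 2 the TAP1 value was -0.0031, with its sign kept. The other losses were for TAP1 (4 values with CTCF and 4 without), PSMB8 without CTCF (3) and HLA-C after depletion (3), with DESeq2 or with 1 library left out. The 4 genes called higher in each comparison with 0 h were the same genes under all fits tried, except that B2M in depleted cells (0.95) did not reach a log2 fold above 1. The count called lower with CTCF, 1 as reported, was 2 without a filter, 0 with glmTreat and 0 at a log2 fold above 1. It was 3 at an adjusted p of 0.05 with no fold threshold, where 5500 of all 14758 genes were lower. Without 0 h replicate 1 or control replicate 2, PSMB9 stood at -0.58 and -0.49, short of the fold threshold. In the same fits TAP2 stood at -0.65 and -0.63, past it. After depletion the count lower, 0 as reported, was 4 at an adjusted p of 0.05 alone, where 3330 of all 14758 genes were. In depleted cells against 0 h, the count lower, 2 as reported, was 1 with glmTreat and 0 at a log2 fold above 1. It was 4 at an adjusted p of 0.05 alone, where 5658 of all 14758 genes were lower. Where only the threshold changed, it is the cause; elsewhere the cause was not tested. With the replicate block the counts were 4 higher and 1 lower, 0 and 0, and 4 and 2, and no call changed. Leaving out 1 library, the log2 difference between depleted and control ratios ran from -0.151 to 0.00782 for PSMB8 to PSMB5, from -0.132 to 0.0863 for PSMB9 to PSMB6 and from -0.119 to 0.185 for PSMB10 to PSMB7. With the union of exons as length, an alternative chosen after seeing the data, 10 positions in the order of levels changed. A fit with 1 library left in a group assumes that it varies like the others. Over all genes, the depletion calls (798 higher, 1038 lower) were 298 and 344 with glmTreat and 409 and 436 at a log2 fold above 1. HLA-F had at most 6 counts per library, too few for a test, and the reason for its low counts was not tested.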
